A study of Saccharomyces cerevisiae with 4 samples.

Results

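The mitochondrial inner membrane of budding yeast receives electrons and pyruvate from glycolysis through a small set of proteins, and the mRNAs of 7 of them are described here: the NADH dehydrogenase genes NDE1, NDE2 and NDI1, the glycerol 3-phosphate dehydrogenase gene GUT2, and the mitochondrial pyruvate carrier genes MPC1, MPC2 and MPC3. These 7 are the genes with the identifiers YMR145C, YDL085W, YML120C, YIL155C, YGL080W, YHR162W and YGR243W, out of 7127 features in the count table. They were chosen by name, with their levels in the Ctrl and TUDCA libraries already known, so their differences between the groups are given as a description, with no test of the 7 as a set. All 7 had enough counts to enter the fit across 6420 features.

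RNA came from Saccharomyces cerevisiae strain BY4742, an α-mating haploid of laboratory descent, which carries the auxotrophic alleles his3Δ1, leu2Δ0, lys2Δ0 and ura3Δ0 in both groups. Cultures in exponential growth in YPD, a rich glucose medium, were given tauroursodeoxycholic acid (TUDCA), the taurine conjugate of a bile acid, at 5 mM for 2 h, or were kept without it (Ctrl). There were 2 libraries in each group, and the labels do not say whether they were separate cultures, so the spread between them may be technical. The labels name no vehicle for the Ctrl cultures, and both groups are of 1 strain.

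Budding yeast has no proton-pumping complex I. NADH made in the matrix is oxidised by Ndi1 on the inner face of the membrane, and cytosolic NADH by Nde1 and Nde2 on the outer face. Gut2, an FAD enzyme on the outer face, takes electrons from glycerol 3-phosphate that cytosolic Gpd1 and Gpd2 make with NADH. All of these enzymes reduce ubiquinone. Pyruvate enters the matrix through a carrier of 2 different subunits, Mpc1 with Mpc2 in fermenting cells, or Mpc1 with Mpc3 in respiring cells.

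Counts assigned to features ran from 74080860 to 97133389 per library. In every library LEU2 and URA3 had 0 counts and LYS2 at most 2, as the genotype requires. SAG1, the α-agglutinin gene of α cells, had at least 6527 counts in every library, and all 4 listed α markers lay lower in TUDCA, with SAG1 called lower by edgeR. Of the 5 listed markers of a cells, the a-factor genes MFA1 and MFA2 had at most 196 counts, the receptor gene STE2 and the protease gene BAR1 at most 986, and the a-factor exporter gene STE6 2742 to 3072. At 29.9 to 38.8 CPM, STE6 lay above the lowest α marker, MF(ALPHA)2, at 12.3 to 26.6 CPM. Ctrl replicate 2 stood apart in the SD of log2 ratios over all tested features. Its SD was 0.29 against Ctrl replicate 1, and 0.35 and 0.32 against TUDCA replicates 1 and 2. Ctrl replicate 1 was nearer to the TUDCA libraries, at 0.19 and 0.20, than to Ctrl replicate 2. The SD between the TUDCA libraries was 0.18. Cytosolic ribosomal protein genes held 13.3% of the counts of Ctrl replicate 2 and 9.75% to 10.4% of those of the other libraries. Bulk counts cannot tell fewer cells that express a gene from less of its RNA per cell.

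In TUDCA the mRNAs of NDE1, NDI1, GUT2 and MPC3 were at higher levels in both libraries than in either Ctrl library, by 1.30-fold to 1.75-fold. NDE2 lay at about its Ctrl level, 1.04-fold. MPC1 and MPC2 lay below their Ctrl levels, by 1.11-fold and 1.22-fold, differences close to the gap between the Ctrl libraries. edgeR's quasi-likelihood test across all 6420 features, with Benjamini-Hochberg adjustment at 0.05, called 0 of the 7. It called 6 features in all (0.0935%), 2 higher (0.0312%) and 4 lower (0.0623%).

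At an unadjusted p under 0.05 edgeR had 4 of the 7 higher and 1 lower, against 3.75% and 4.56% of all features. DESeq2 called NDE1 and MPC3 higher, with 0.467% of features called higher, and limma called 0 of the 7 and 0.0935% of features on either kind of value. Leaving out 1 library leaves 1 sample in its group, which the fit assumes to vary like the other group, so such calls rest on the spread of 1 pair. Without Ctrl replicate 1, edgeR called NDE1, NDI1, GUT2 and MPC3 higher and MPC1 and MPC2 lower, where 17.6% of all features were called higher and 13.4% lower. Without Ctrl replicate 2 it called NDE1 and MPC3 (0.372% of features higher), without TUDCA replicate 2 it called MPC3 (0.186% higher), and without TUDCA replicate 1 it called 0 of the 7 (0.108% in either direction). Both TUDCA libraries lay above both Ctrl libraries for 4 of the 7 and below them for 2, against 23.7% and 23.9% of all features. Since the members were picked with this contrast known, nothing is read from these counts.

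**Figure D1:**
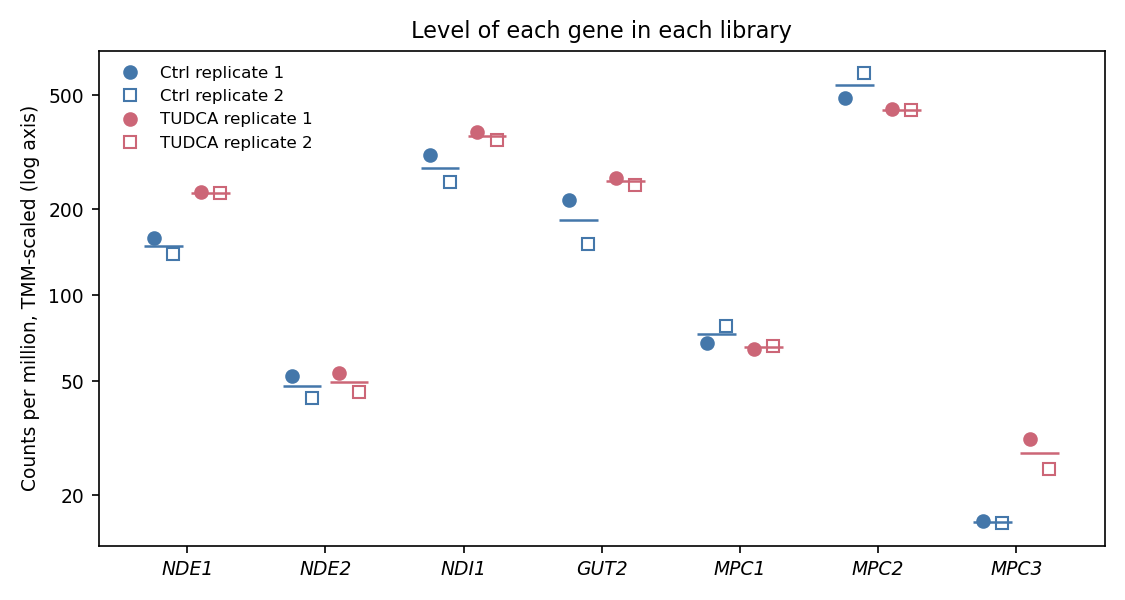
Level of each of the 7 genes in each of the 4 libraries, in CPM (counts scaled by library total and TMM factor), on a log axis; circles are replicate 1, open squares replicate 2 and horizontal lines group means. For NDE1 and MPC3 the TUDCA points stand clear of the Ctrl points (228 and 229 against 139 and 158 for NDE1), whereas for NDE2 the groups overlap.

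NDE1 (YMR145C), on the minus strand of chromosome XIII from 554793 to 556475 in build R64, encodes the main external NADH dehydrogenase. Its level in CPM, which are counts scaled by library total and TMM factor, was 158 and 139 in the Ctrl libraries and 229 and 228 in the TUDCA libraries. Both TUDCA libraries were well above both Ctrl libraries, and they were nearly equal to each other. The group means were 149 ± 13.7 CPM in the Ctrl libraries and 228 ± 0.699 CPM in TUDCA (SD, n = 2 in each group), a log2 fold change of 0.62 with a standard error of 0.091. The nearest Ctrl and TUDCA libraries were 0.52 apart on the log2 scale, against 0.19 between the Ctrl libraries.

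NDE2 (YDL085W, chromosome IV, 303211 to 304848, plus strand), the paralog with the same reaction, did not share that pattern. Its level was 52.3 and 43.6 CPM in the Ctrl libraries and 53.3 and 46.0 CPM in TUDCA, and the groups overlapped. In each group replicate 2 was the lower library. The log2 fold change was 0.051 (SE 0.11), and it turned to -0.073 without Ctrl replicate 2 and to -0.058 without TUDCA replicate 1.

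The coding sequences of the pair are far apart. Over 1609 aligned bases of coding sequence, 66.1% were identical, and the longest run shared at any place without a mismatch was 11 bases. The most alike stretch of 60 bases in their alignment is shown to make this visible, with capitals at the 13 bases that differ, read 5′ to 3′ on the coding strand of build R64 (chrXIII:555900-555959 minus strand for NDE1, chrIV:303682-303741 plus strand for NDE2).
NDE1: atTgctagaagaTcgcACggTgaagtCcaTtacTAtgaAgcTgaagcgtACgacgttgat
NDE2: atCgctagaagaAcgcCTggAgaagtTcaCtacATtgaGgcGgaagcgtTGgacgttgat

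NDI1 (YML120C, chromosome XIII, 28266 to 29807, minus strand), the internal NADH dehydrogenase, was at 308 and 249 CPM in the Ctrl libraries and 372 and 349 CPM in TUDCA. Both TUDCA libraries were above both Ctrl libraries, and Ctrl replicate 2 was the lowest of the 4. The means were 278 ± 41.8 and 360.5 ± 15.9 CPM (SD, n = 2), a log2 fold change of 0.37 (SE 0.12). The gap between the nearest libraries of the groups, 0.18 on the log2 scale, was smaller than the 0.31 between the Ctrl libraries, and the fold change was 0.23 without Ctrl replicate 2.

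GUT2 (YIL155C, chromosome IX, 51759 to 53708, minus strand), the mitochondrial arm of the glycerol 3-phosphate shuttle, was at 216 and 151 CPM in the Ctrl libraries and 258 and 242 CPM in TUDCA. The groups did not overlap, but GUT2 had the widest spread of the 7 in Ctrl, with Ctrl replicate 2 lower by 0.51 on the log2 scale. The means were 183 ± 45.5 and 250.0 ± 11 CPM (SD, n = 2), a log2 fold change of 0.45 (SE 0.15). Without Ctrl replicate 2 it was 0.22, and without Ctrl replicate 1 it was 0.74.

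The 3 dehydrogenase genes that were higher in TUDCA therefore differed in how far 1 library set the size. For NDE1 the log2 fold change stayed between 0.53 and 0.73 whichever library was left out, whereas for NDI1 and GUT2 the range was 0.23 to 0.55 and 0.22 to 0.74.

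**Figure D2:**
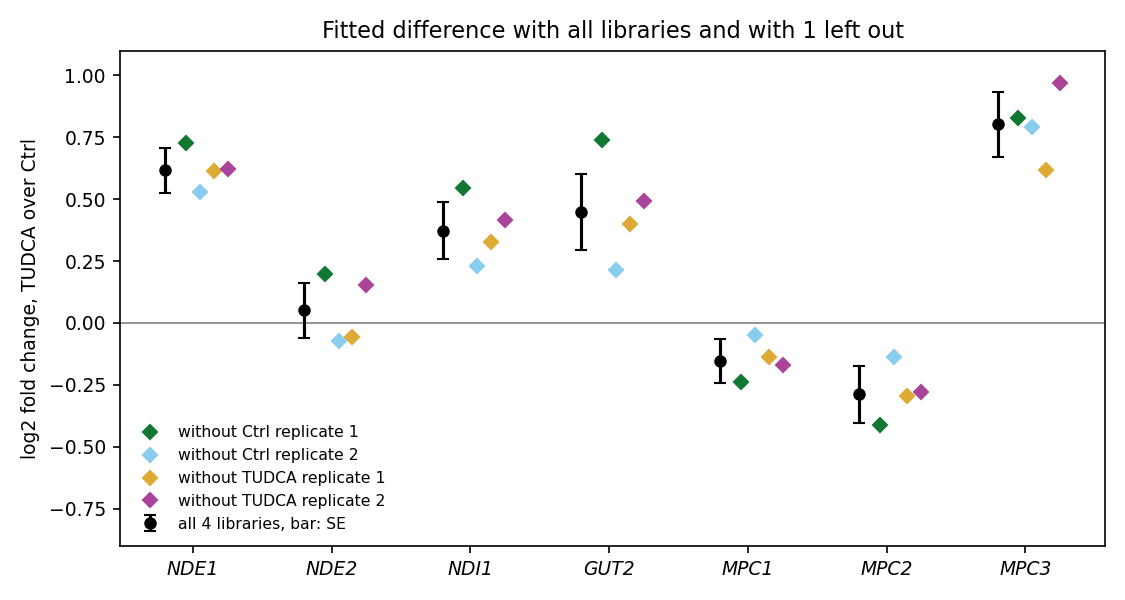
Log2 fold change of TUDCA over Ctrl for the 7 genes from the fit across all features, with all 4 libraries (black, bars are standard errors) and with each library left out in turn (diamonds). NDE1 and MPC3 stay at 0.53 or more in every case, GUT2 runs from 0.22 to 0.74, and NDE2 changes sign.

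MPC3 (YGR243W, chromosome VII, 977336 to 977776, plus strand), the respiratory partner subunit of Mpc1, was the least abundant by CPM. It was at 16.2 and 16 CPM in the Ctrl libraries and at 31.5 and 24.7 CPM in TUDCA, from 1201 to 2407 counts per library. The Ctrl libraries were nearly equal and both TUDCA libraries were above them, by 0.60 on the log2 scale at the nearest. The log2 fold change was 0.80 (SE 0.13), or 1.75-fold, with means of 16.1 ± 0.206 and 28.1 ± 4.84 CPM (SD, n = 2). The spread lay in TUDCA: the log2 fold change was 0.62 without TUDCA replicate 1 and 0.97 without TUDCA replicate 2. It was the 24th highest of the 6420 fitted values, and NDE1 the 63rd.

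MPC2 (YHR162W, chromosome VIII, 423072 to 423461, plus strand), the fermentative partner subunit, was the most abundant of the 7. Its level was 489.6 and 597 CPM in the Ctrl libraries and 448 and 442 CPM in TUDCA. Both TUDCA libraries were below both Ctrl libraries, but the Ctrl libraries were 0.29 apart on the log2 scale, as far as the groups. The log2 fold change was -0.29 (SE 0.12), with means of 543 ± 75.8 and 445 ± 3.59 CPM (SD, n = 2), and it was -0.14 without Ctrl replicate 2.

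MPC1 (YGL080W, chromosome VII, 358636 to 359028, plus strand) encodes the subunit common to both forms of the carrier. It was at 68.0 and 78.2 CPM in the Ctrl libraries and 64.9 and 66.4 CPM in TUDCA. The groups missed overlap by 0.035 on the log2 scale, and Ctrl replicate 2 was the highest library. The log2 fold change was -0.16 (SE 0.089), and -0.049 without Ctrl replicate 2.

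MPC2 and MPC3 were the most alike pair in coding sequence, with 72.7% of 388 aligned bases identical and a longest shared run of 14 bases. The most alike 60 bases of their alignment are shown to place the paralogs side by side, with capitals at the 11 bases that differ, both on the plus strand of build R64 (chrVIII:423115-423174 for MPC2, chrVII:977379-977438 for MPC3).
MPC2: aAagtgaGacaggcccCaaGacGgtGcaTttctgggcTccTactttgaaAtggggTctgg
MPC3: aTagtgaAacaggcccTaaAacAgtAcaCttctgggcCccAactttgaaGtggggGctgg
No other feature of the count table overlapped any of the 7 genes.

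Ratios of genes within 1 library do not depend on how libraries are scaled to each other. Per kilobase of gene, MPC2 mRNA exceeded MPC3 mRNA 34.1-fold and 42.3-fold in the Ctrl libraries and 16-fold and 20.3-fold in the TUDCA libraries. The share of MPC3 in the sum of MPC2 and MPC3 was 2.85% and 2.31% in Ctrl and 5.87% and 4.70% in TUDCA. The abundant MPC2 was lower and the scarce MPC3 higher in TUDCA, so their levels lay closer together there, and MPC2 was the main form in every library. The log2 ratio of MPC2 to MPC3 was 5.25 ± 0.22 in Ctrl and 4.17 ± 0.24 in TUDCA (SD, n = 2), a difference of -1.07 that stayed between -1.24 and -0.91 when any 1 library was left out.

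NDE1 exceeded NDE2 per kilobase 2.95-fold and 3.10-fold in Ctrl and 4.18-fold and 4.82-fold in TUDCA. Both TUDCA libraries were above both Ctrl libraries, and the difference in the log2 ratio, 0.57, stayed between 0.47 and 0.67 with any 1 library left out. The mean log2 ratio was 1.6 ± 0.051 in Ctrl and 2.17 ± 0.14 in TUDCA (SD, n = 2).

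The other ratios moved little. The summed external enzymes NDE1 and NDE2 stood to NDI1 at a log2 ratio of -0.61 ± 0.072 in Ctrl and -0.49 ± 0.033 in TUDCA. The groups did not overlap in that ratio, with TUDCA higher. GUT2 mRNA per kilobase was 0.554 and 0.481 of NDI1 in the Ctrl libraries and 0.548 of it in both TUDCA libraries, so the groups overlapped. MPC1 stood to the sum of its partners at -2.94 ± 0.054 and -2.85 ± 0.047 (SD, n = 2 throughout), with TUDCA higher and no overlap. With 2 libraries against 2, an exact two-sided permutation test over libraries cannot go below p = 0.333, so no ratio could have passed one.

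**Figure D3:**
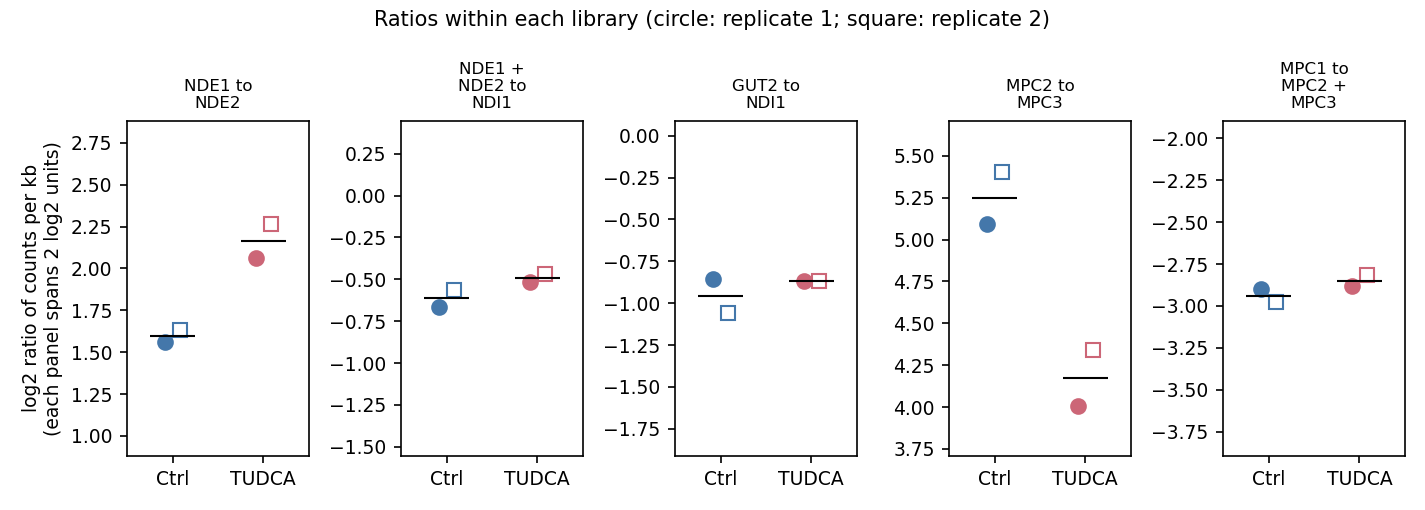
Log2 ratio of counts per kilobase within each library for 5 pairs or sums of the genes, with circles for replicate 1, open squares for replicate 2 and lines for group means; each panel spans the same 2 log2 units. The ratio of NDE1 to NDE2 lies higher in TUDCA (2.06 and 2.27) than in Ctrl (1.56 and 1.63), the ratio of MPC2 to MPC3 lies lower (4.0 and 4.34 against 5.09 and 5.40), and the other 3 stay within 0.3 log2 units.

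Levels of different genes were compared as CPM per kilobase. In Ctrl the order was MPC2 at 1393 ± 194, MPC1 at 186 ± 18.3, NDI1 at 180.5 ± 27.1, GUT2 at 94.0 ± 23.3, NDE1 at 88.4 ± 8.13, MPC3 at 36.5 ± 0.467 and NDE2 at 29.3 ± 3.72 (SD, n = 2). MPC1 and NDI1 overlapped between libraries, as did GUT2 and NDE1, so these neighbours did not differ beyond their spread. In TUDCA the order was MPC2 at 1141 ± 9.21, NDI1 at 234 ± 10.3, MPC1 at 167 ± 2.61, NDE1 at 136 ± 0.415, GUT2 at 128 ± 5.66, MPC3 at 63.7 ± 11 and NDE2 at 30.3 ± 3.11. No libraries of neighbouring genes overlapped in TUDCA, and NDI1 and NDE1 had each moved up by 1 place. The 4 dehydrogenase genes together summed to 436 and 348 CPM per kilobase in Ctrl and to 542 and 514 in TUDCA, whereas the 3 carrier genes summed to 1465 and 1765 in Ctrl and to 1384 and 1359 in TUDCA. NDI1 made up 44.0% to 46.3% of the dehydrogenase sum in every library.

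Gene length moved with the contrast over all features. The 911 tested features over 1500 and up to 2000 bp, the class of all 4 dehydrogenase genes, had a median log2 fold change of 0.051, and the 888 over 300 and up to 500 bp, the class of the 3 carrier genes, had -0.12. Both TUDCA libraries were above both Ctrl libraries for 31.4% of features in the first class and below them for 39.0% in the second. In the same classes Ctrl replicate 2 differed from Ctrl replicate 1 by medians of -0.060 and 0.15. Only 1 other feature of its class had a higher value than NDE1, against 13 for GUT2 and 20 for NDI1, and 12 were above MPC3 in its own class. NDE2 was the middle feature of its class. MPC1, at -0.034 relative to its class, was close to the middle of its own, and MPC2 was at -0.17. The part of length in these differences was not tested further.

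**Figure D4:**
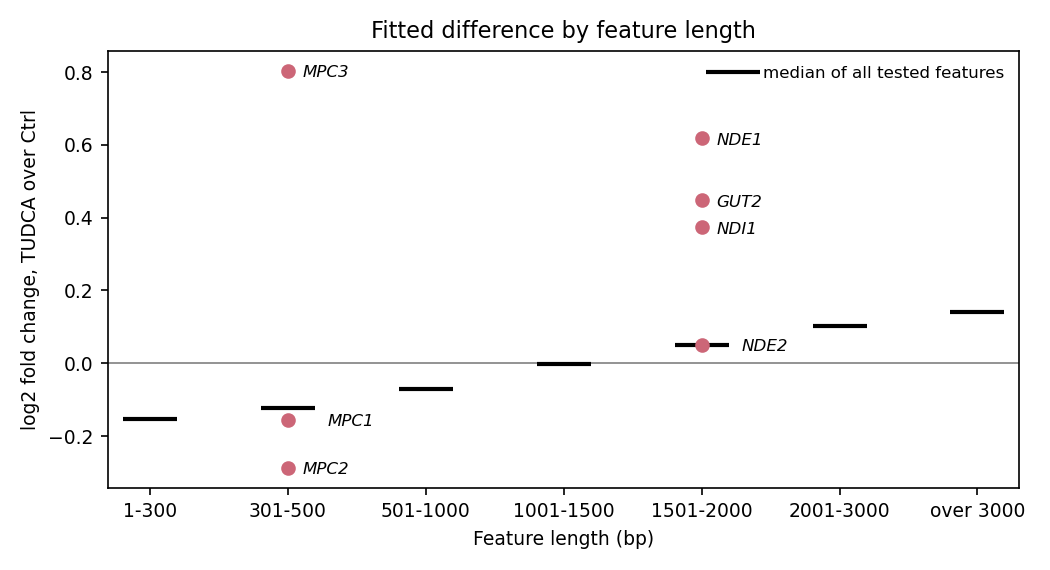
Log2 fold change of TUDCA over Ctrl by length class of the feature; black bars are medians of all tested features in a class and red points are the 7 genes. The medians run from -0.15 for the shortest class to 0.14 for the longest; MPC1 and NDE2 lie near the median of their class, and NDE1, GUT2, NDI1 and MPC3 lie above it.

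Ctrl replicate 2 also differed from Ctrl replicate 1 for most of the 7 genes. Relative to Ctrl replicate 1 it was lower for GUT2 (-0.51 on the log2 scale), NDI1 (-0.31), NDE2 (-0.26) and NDE1 (-0.19), nearly equal for MPC3 (-0.026), and higher for MPC1 (0.20) and MPC2 (0.29). MPC3 thus lay below the median of its length class in that gap, and NDE2, level between the groups, was among the genes lower in that library. The median absolute gap between the Ctrl libraries over all tested features was 0.14. The 137 cytosolic ribosomal protein genes had a median of 0.41 between these libraries and a median log2 fold change of -0.29 in TUDCA, the same value as MPC2. The part of that library in the MPC2 value was not tested beyond leaving it out.

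Genes with the most similar profile were sought for each of the 7, by the Euclidean distance between log2 CPM centred over the 4 libraries, among 5339 other protein-coding genes at 10 CPM or more. For MPC2 the nearest were RPP2B and RPS21B, both ribosomal protein genes, and SDO1, with distances of 0.012 to 0.021. For MPC1 they were RTT105, ENV9 and the citrate carrier gene CTP1 (0.010 to 0.016), and 560 genes lay within 0.1 of it. For NDI1 they were SKM1, SOL1 and the mitochondrial malate dehydrogenase gene MDH1 (0.031 to 0.043), and for NDE2 SNA2, GCY1 and CAT2 (0.017 to 0.034).

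GUT2 was nearest to AMF1, FRE8 and IML2 (0.074 to 0.079). No gene lay within 0.1 of NDE1, whose nearest were HBN1, SMP1 and TDA1 (0.11 to 0.12). MPC3 stood furthest from any other gene, with LEE1, HBN1 and YML131W at 0.19 to 0.24. This distance grows with the size of a gene's differences between libraries. In shape alone, the named genes correlated with MPC3 at r = 0.958 to 0.9995 and those of NDE1 with it at r = 0.987 to 0.99996. Among themselves, MPC1 and MPC2 (0.15) and NDI1 and GUT2 (0.17) were closest and MPC2 and MPC3 (1.12) were furthest apart. With 4 libraries such profiles are a description only.

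Sequence upstream of the genes was searched for 5 motifs on both strands, between 500 and 51 bases before the start codon, in 5718 protein-coding genes of 1 exon; windows can reach into a neighbouring gene. The core CCAAT of the Hap complex, which activates respiratory genes, matched in NDE1, NDI1, GUT2, MPC1 and MPC3, and in 59.1% of all windows. It matched at 4 places in MPC3 (4 or more in 1.36% of windows), at 2 places each in NDE1, NDI1 and MPC1 (2 or more in 23.5%), and at none in NDE2 or MPC2. The stress response element AGGGG matched in all but NDE1 (31.7% of windows), and CCCCGC, a core of the glucose repressor Mig1, in NDE2, GUT2, MPC1 and MPC3 (5.65%). The Pdr1 and Pdr3 element TCCGCGGA matched in none of the 7 (0.647%). The carbon source response element, searched as CC and CCG with 6 free bases between them, matched in NDE2 only (19.8% of windows). It had 3 matches there (3 or more in 0.507%). Those that begin 387 and 386 bases before the start codon overlap on opposite strands, so they are not separate places. The share counts overlapping matches in the same way. A match is a string of letters and not a shown site.

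The windows of the genes that were higher in TUDCA are shown where CCAAT matched, in capitals as it reads on the gene's own strand, so ATTGG where it lies on the other strand. NDE1 (chrXIII:556714-556754 and chrXIII:556555-556595), NDI1 (chrXIII:30012-30052 and chrXIII:29870-29910) and GUT2 (chrIX:53958-53998) are on the minus strand of build R64.
NDE1, far: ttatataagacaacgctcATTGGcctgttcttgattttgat
NDE1, near: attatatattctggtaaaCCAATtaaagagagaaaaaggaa
NDI1, far: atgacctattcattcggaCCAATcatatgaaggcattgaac
NDI1, near: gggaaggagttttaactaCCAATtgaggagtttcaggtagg
GUT2: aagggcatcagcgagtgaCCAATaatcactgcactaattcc
MPC3 had 4 CCAAT matches, and those that begin 138 and 130 bases before the start codon are not shown. A stretch of 76 bases (chrVII:976971-977046, plus strand) held its other CCAAT matches and 1 match each to AGGGG and CCCCGC. They are in capitals, in the order CCAAT on the other strand, AGGGG on the other strand, CCCCGC and CCAAT.
MPC3: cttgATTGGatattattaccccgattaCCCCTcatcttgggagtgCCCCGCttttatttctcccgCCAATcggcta
These motifs did not sort the genes by direction. MPC1, which was lower in TUDCA, had CCAAT at 2 places and is not shown. AGGGG matched in NDI1, GUT2 and MPC3, which were higher, as well as in NDE2. NDE2, whose level did not follow NDE1, had 2 AGGGG matches on the other strand (2 or more in 7.33% of windows). The first is in capitals and the second in the lower-case letters after it (chrIV:303040-303080, plus strand).
NDE2: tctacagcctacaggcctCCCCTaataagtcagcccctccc

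Genes of neighbouring reactions were described from 10 lists of 111 tested genes. edgeR called 0 of the 111, against 0.0935% of all features, while 11 were higher (3.75% of all features) and 7 lower (4.56%) at an unadjusted p under 0.05. DESeq2 called HAP4, ALD5 and AAC3, where it called 0.919% of all features, and limma called 0. The median log2 fold change of all 6420 tested features was -0.0037.

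Partners of GUT2 in glycerol metabolism were mixed. Of 9 genes 0 passed edgeR's test, the median was 0.12, and 7 lay above 0, against 49.0% of all features. GPD1, the main cytosolic glycerol 3-phosphate dehydrogenase, went from 688 ± 17.4 to 769 ± 23.2 CPM, and its isoenzyme gene GPD2 from 217 ± 0.347 to 191 ± 3.96 CPM, so the isoenzyme genes differed in sign (0.16 and -0.18 on the log2 scale). The glycerol kinase gene GUT1 was at 0.25 and the glycerol phosphatase gene GPP1, with overlapping groups, at -0.33.

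Other enzymes that reduce ubiquinone or cytochrome c did not share the size seen for NDE1. In succinate dehydrogenase, SDH1 (flavoprotein) was at 0.30 and SDH2 (iron-sulfur subunit) at 0.25, whereas the membrane subunit genes SDH3 and SDH4 were at -0.040 and 0.14. The 7 genes of that list had a median of 0.030 and 0 passed. The 6 lactate genes had a median of 0.065 and 0 passed, with the L-lactate dehydrogenase gene CYB2 at 0.14, the D-lactate dehydrogenase gene DLD1 at -0.0040 and the lactate permease gene JEN1 at 0.22. The 11 ubiquinone synthesis genes stayed within 0.091 of 0 with a median of 0.0020, COQ2 at -0.011 and COQ4 the furthest, at -0.091.

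In other NADH shuttles 0 of 13 passed and the median was 0.018. MDH1, the matrix malate dehydrogenase, went from 803 ± 132 to 1049 ± 71.8 CPM (log2 fold change 0.39, SE 0.13, edgeR adjusted p = 0.544). ALD5, a mitochondrial aldehyde dehydrogenase gene, went the other way, from 277 ± 35.9 to 198 ± 13.8 CPM (-0.48, SE 0.11, edgeR adjusted p = 0.381). ADH3, the mitochondrial alcohol dehydrogenase of the ethanol shuttle, was at -0.088 with overlapping groups.

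On the pyruvate side, the 3 list medians differed in sign. The 9 genes of pyruvate supply and decarboxylation had a median of 0.10 and 0 passed, with the decarboxylase gene PDC1 at 0.14, the carboxylase gene PYC1 at 0.10 and the minor pyruvate kinase gene PYK2 at 0.17. The 12 genes of the pyruvate dehydrogenase complex had a median of 0.038 and 0 passed, with PDA1 at -0.025, LAT1 at 0.045 and the phosphatase gene PTC5 at 0.14. The 8 genes of branched-chain amino acid and alanine synthesis from matrix pyruvate, later steps included, had a median of -0.16, and 0 passed. Of them 7 lay below 0, where 49.0% of all features lay above 0. For 5 of them both TUDCA libraries were below both Ctrl libraries, against 23.9% of all features. ILV2, the first enzyme of the branched-chain path, was at -0.11 and ILV3 at -0.27. The median gap of Ctrl replicate 2 over Ctrl replicate 1 in that list was 0.14.

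Among 24 other inner membrane carriers 0 passed and the median was 0.0062. AAC3, the hypoxic ADP/ATP carrier gene, was at 21.3 and 20.7 CPM in the Ctrl libraries and 15.1 and 14.9 CPM in TUDCA, with no overlap and close replicates (-0.48, SE 0.10, edgeR adjusted p = 0.270). Of the 12 glucose-repressed genes of respiratory growth, 0 passed, 9 lay above 0 (49.0% of all features) and the median was 0.17. At edgeR's unadjusted p under 0.05, 4 were higher (3.75% of all features) and 0 lower (4.56%). Both TUDCA libraries were above both Ctrl libraries for 5 (23.7% of all features) and below them for 0 (23.9%). The median gap of Ctrl replicate 2 over Ctrl replicate 1 in this list was -0.11. HAP4, the activating subunit of the Hap complex, was at 217 and 181 CPM in the Ctrl libraries and 304 and 276 CPM in TUDCA (log2 fold change 0.55, SE 0.11, edgeR adjusted p = 0.251). Its groups did not overlap, and it was at 0.42 without Ctrl replicate 2. The list was not uniform: the alcohol dehydrogenase gene ADH2, a standard marker of glucose derepression, was at 47.2 ± 9.57 CPM in the Ctrl libraries and 47.9 ± 10.8 CPM in TUDCA.

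**Figure D5:**
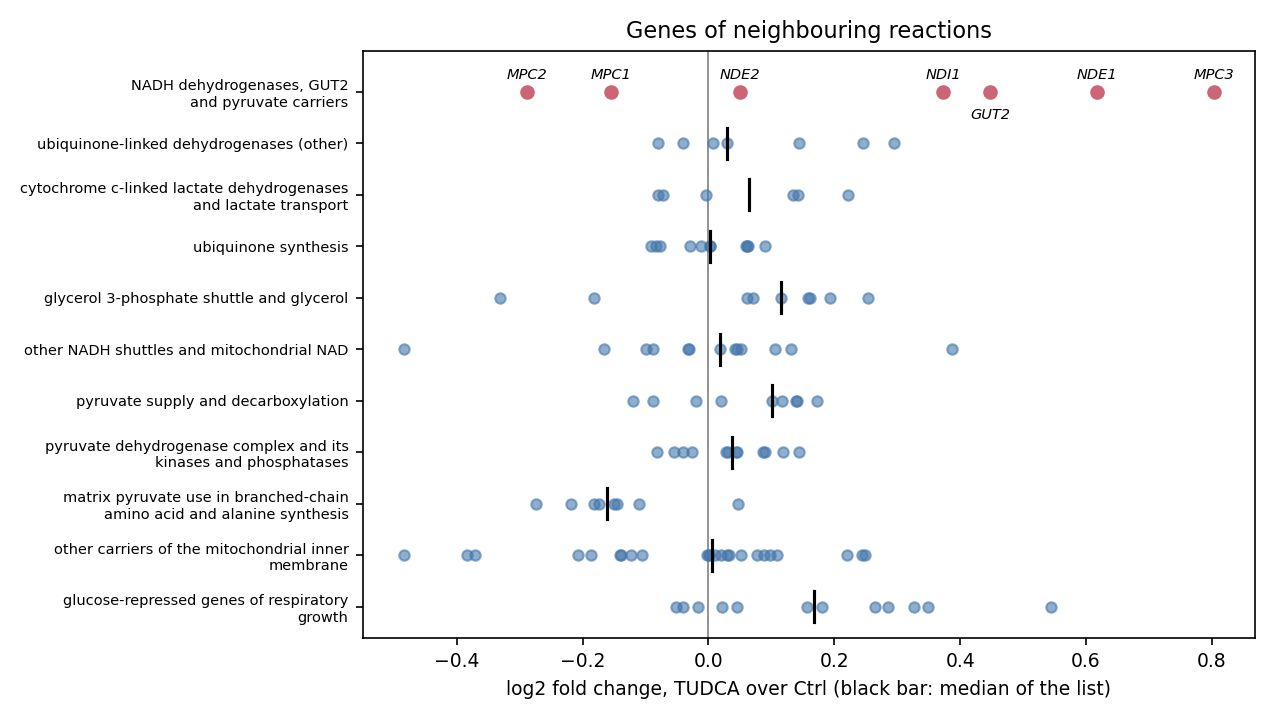
Log2 fold change of TUDCA over Ctrl for the 7 genes (red, top row) and for the genes of 10 lists of neighbouring reactions (blue), with black bars at each list's median. MPC3 and NDE1 lie to the right of every listed gene, HAP4 at 0.55 is the furthest right among the lists, and the list medians lie between -0.16 and 0.17.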

How the data were processed

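Stranded libraries of poly(A)-enriched RNA, 2 TUDCA and 2 Ctrl, were sequenced, and groups follow the sample titles. The deposited counts are raw counts per feature. In the deposited signal files each library's counts were divided by 1 size factor (0.899 to 1.15), as a check on the files showed. The submitters' processing notes name STAR 2.5.4b, featureCounts 1.6.0, DESeq2 1.26.0 and build R64. Annotation release, multimapping rule and strand setting are not given in the sources used here. Total counts per library were 74080860 to 97133389.

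Counts were fitted in R 4.3.3 with edgeR 4.0.16 (filterByExpr at a minimum count of 10, TMM factors, quasi-likelihood F test, Benjamini-Hochberg adjustment at 0.05 over 6420 features). The biological coefficient of variation was 8.34%. Counts were also simulated for 6402 features of this comparison. The fit called 79.1% of 67 features changed 1.5-fold, 92.5% of 67 changed 2-fold, 100% of 66 changed 4-fold and 0.161% of unchanged ones. The simulated counts varied independently between features, with no library set apart like Ctrl replicate 2. Each simulated feature had the spread fitted for its level, without scatter of single features around it. The simulation changed 200 features, whereas edgeR called 6 in the real libraries. These shares may therefore overstate what the fit could call in the real libraries. Alternatives were other scaling, no filter, DESeq2 1.42.0, limma 3.58.1 (voom, and on log2 of the deposited values plus 1), a replicate block and leaving out each library.

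The members, gene lists and motifs were chosen with earlier results of these data known. Named were the members, a fixed set of partner genes, per list the called genes and the largest difference at 10 CPM or more, and the 3 nearest profiles per member. SDH2, SDH3, SDH4 and the ribosomal protein genes were chosen after their values were seen. Symbols and sequences came from RefSeq, build R64, which matched 6047 of 7127 features. The coordinates of the members were the same in both, and coding sequences were aligned with Biopython 1.88.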

Additional observations from a re-analysis of the deposited data

How the results depend on the processing

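Over all features, edgeR's 2 higher and 4 lower calls became 1 higher under upper-quartile scaling, 30 higher and 29 lower with DESeq2, and 191 higher and 162 lower with the replicate block. Leaving out 1 library gave 2 to 1139 higher and 5 to 871 lower, most without Ctrl replicate 1. The median log2 fold change of the 7 genes, 0.37, ranged from 0.22 to 0.55 with 1 library left out, NDE1 from 0.53 to 0.73, NDE2 from -0.073 to 0.20, NDI1 from 0.23 to 0.55, GUT2 from 0.22 to 0.74, MPC1 from -0.24 to -0.049, MPC2 from -0.41 to -0.14 and MPC3 from 0.62 to 0.97. Relative to its length class, an alternative chosen after seeing the data, MPC1 was at -0.034. Calls in the 10 lists were 0 with edgeR, 3 with DESeq2 (0.919% of all features), 10 with the replicate block (5.5%) and 0 to 29 with 1 library left out, the 29 without Ctrl replicate 1, where 31% of all features were called. The labels give the replicates only a shared number. The deviations of same-numbered libraries correlated at r = 0.17 over features, which does not settle whether they were paired. The main fit used no pairing. With the block NDE1, NDI1, GUT2 and MPC3 were called, where 2.98% of all features were called higher. The block leaves less of the spread to be estimated from each gene itself. These calls therefore lean more than those of the main fit on spread pooled over features. Of the 7, those called with 1 library left out were 4 higher and 2 lower without Ctrl replicate 1 (17.6% and 13.4% of all features), NDE1 and MPC3 without Ctrl replicate 2 (0.372%), 0 without TUDCA replicate 1 and MPC3 without TUDCA replicate 2 (0.186%). The cause of these changes was not tested. Each of the 7 had at least 1201 counts in every library. Where 1 library was left out, its group had 1 sample, assumed to vary like the other group.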
